A study of Papaver somniferum with 9 samples.

Results

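The 200 unigenes described here are those whose RPKM value (reads scaled by the length of the unigene and by the mapped reads of the sample) varied least over root, stem and leaf of opium poppy, Papaver somniferum. They were chosen from the deposited values of all 9 samples. A unigene had to lie from 15 up to but not including 100 RPKM in every sample, which held for 2045 of the 61856 unigenes, called candidates below. The candidates were ranked by their highest value divided by their lowest value, and the first 200 were taken. Because the 9 values themselves made the choice, the levels and spreads of these unigenes in those samples are given as a description and without a test. All 200 were also above the limit on low values used for the differential expression fit, a limit that the level window already guarantees.

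The samples came from the cultivar B1 at the filling stage, when the capsule fills after the petals have fallen. There were 3 samples of root taken from an underground part, 3 of stem taken from its middle position and 3 of leaf taken from the top of the plant. No group carried a treatment or a transgene. A unigene is a non-redundant gene model built from long PacBio reads of pooled B1 RNA, and short paired-end reads of each sample were mapped to these models. The study describes 3 independent samples per sampling point without saying whether they came from separate plants, so spreads and p-values refer to these samples, and their differences may be partly technical.

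Genes whose transcripts stay near 1 level in organs of very different function are usually called housekeeping genes. They serve tasks that every plant cell has, such as protein synthesis and turnover, the cytoskeleton and vesicle transport, and they are the usual source of internal references for quantitative PCR. Root, stem and top leaf are a demanding set for such a comparison. The root takes up water and ions, the stem carries the conducting tissue and the laticifers in which poppy latex with its alkaloids collects, and the leaf is given over to photosynthesis. The deposited IDs carry no gene names, and none of them matched the RefSeq gene table of this species (0 of 200 steady unigenes and 0 of 61856 in all). The steady unigenes are therefore given by their IDs, no function is assigned to any of them, and marker genes of the 3 organs were not looked up.

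The libraries differed in ways that touch every ratio below. Root replicate 2 had the smallest summed RPKM, 898884, and the largest, 1092543, belonged to stem replicate 3. The median RPKM over all unigenes was lowest in stem replicate 3, at 0.68, and ran from 0.91 to 1.27 in the other 8 samples. The study's quality table lists a lower RNA integrity for every leaf sample than for any root or stem sample, so the organ and the integrity of its RNA cannot be told apart in leaf. The study lists the clean bases of each library. The number of reads behind each single value is not among the deposited values, so no counting interval is given. In whole organs, a change in the share of a cell type and a change of transcript amount per cell cannot be told apart either.

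The steadiest unigene, PB.58775.1, had 27.80, 28.73 and 25.71 RPKM in root replicates 1, 2 and 3, 28.35, 28.76 and 27.54 in stem and 28.53, 24.86 and 25.42 in leaf. Its highest value, in stem replicate 2, was 1.16 times its lowest, in leaf replicate 2, and the 3 organs overlapped. PB.20481.2, the second in rank, had 24.41, 23.97 and 23.13 RPKM in root, 22.94, 23.14 and 22.71 in stem and 26.29, 25.82 and 22.70 in leaf. In this unigene the stem replicates were nearly identical (22.9 ± 0.215, SD, n = 3), while leaf held both the highest and the lowest of the 9 values. PB.89.22, the next in rank, had 17.49, 18.84 and 17.32 RPKM in root, 16.17, 18.97 and 18.14 in stem and 17.83, 18.44 and 17.40 in leaf. Its organ means were the closest of all 200, at 17.9 ± 0.833, 17.8 ± 1.44 and 17.9 ± 0.523 RPKM in root, stem and leaf (SD, n = 3 each), and its coefficient of variation of 4.89% over the 9 samples was the lowest.

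The following 5 reached ratios from 1.18 to 1.22. PB.49546.1 had 23.03, 25.31 and 25.05 RPKM in root, 21.45, 23.74 and 24.53 in stem and 24.46, 23.65 and 24.82 in leaf, with stem replicate 1 as the low sample. PB.45949.1 had 33.58, 35.23 and 29.68 RPKM in root, 29.80, 33.08 and 34.34 in stem and 30.50, 30.75 and 35.24 in leaf. Each organ of PB.45949.1 held a low and a high replicate, so that its spread lay between replicates and only 1.54% of its log2 variation lay between organ means. PB.42369.1 had 31.08, 31.14 and 35.46 RPKM in root, 36.44, 31.19 and 31.38 in stem and 35.15, 30.36 and 31.04 in leaf. It showed a like picture, with 1 raised sample in every organ, although the raised sample was replicate 3 in root and replicate 1 in stem and leaf. PB.52429.1 had 21.63, 25 and 20.71 RPKM in root, 20.87, 24.32 and 23.66 in stem and 22.33, 21.80 and 21.06 in leaf. PB.13886.21 had 22.75, 25.67 and 25.25 RPKM in root, 23.09, 26.80 and 27.77 in stem and 25.42, 25.02 and 22.78 in leaf. Leaf was the tightest organ in PB.52429.1, and in PB.13886.21 the low samples were root replicate 1, stem replicate 1 and leaf replicate 3.

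**Figure D1:**
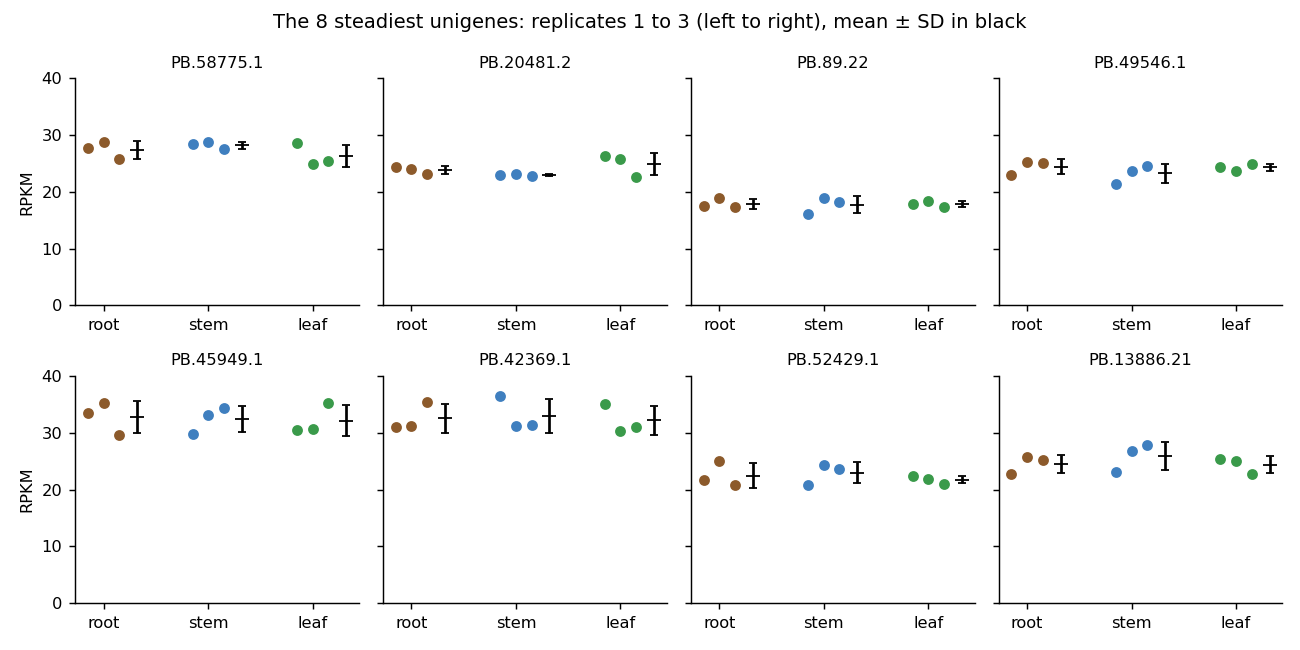
RPKM (y axis, from 0) of the 8 unigenes with the smallest ratio of highest to lowest value, by organ (x axis), with replicates 1 to 3 as coloured points from left to right and the mean ± SD of 3 samples in black. In all 8 panels the 3 organs overlap, and the values run from 16.17 RPKM in PB.89.22 to 36.44 RPKM in PB.42369.1.

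Over the 200 steady unigenes the ratio of highest to lowest value had a median of 1.43 and ran from 1.16 to 1.52, against a median of 2.15 in the 1845 other candidates. In 4 of them all 9 values lay within 10% of the unigene's own mean, in 26 within 15% and in 106 within 20%. The coefficient of variation had a median of 11.8% (4.89% to 17.3%), against 25.9% in the other candidates. The last 2 inside the list were PB.49322.4 and PB.49301.1, both with a ratio of 1.52, and the first 2 outside were PB.54112.3 and PB.55841.1, also with 1.52, so the end of the list falls in a dense part of the ranking. PB.49322.4 had 34.42, 37.59 and 33.11 RPKM in root, 34.31, 40.17 and 39.51 in stem and 30.59, 28.04 and 26.42 in leaf. All 3 leaf values of PB.49322.4 were under its 6 other values, so even near the end of the list an organ could stand apart. PB.49301.1 had 29.22, 23.67 and 22.92 RPKM in root, 24.28, 24.63 and 19.67 in stem and 21.60, 22.70 and 19.21 in leaf, and here root replicate 1 set the high end.

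The level window matters for which unigenes could be steady. Their mean RPKM ran from 17.4 to 83.2 with the middle 50% from 23.8 to 40.3, against 28.5 to 46.8 for the middle 50% of the other candidates. Of the 34 candidates with a mean under 20 RPKM, 18 were steady (52.9%), and none of the 34 had a ratio above 2.03. As no value may fall under 15 RPKM, a mean this low leaves less room for a high ratio, although 1 high value could still exceed 2.03. The share was 13.5% of the 608 candidates from 20 to 30 RPKM, 7.04% of the 1008 from 30 to 50 RPKM and 7.34% of the 395 from 50 to 100 RPKM. Among the steady unigenes the median ratio hardly moved over these 4 levels, from 1.44 at the lowest to 1.41 at the highest. The lower edge left out 199 unigenes with a ratio as small as that of the list and a value under 15 RPKM, and the upper edge left out 49 more. Just inside, PB.51296.1 had its lowest value at 15.13 RPKM and PB.38429.3 its highest at 96.25 RPKM. Just outside, PB.25405.1 was left out for a value of 14.95 RPKM (ratio 1.44) and PB.56970.2 for a value of 102.26 RPKM (ratio 1.51).

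The most abundant steady unigene was PB.48056.1, with 89.42, 83.98 and 72.32 RPKM in root, 89.99, 88.29 and 92.83 in stem and 81.53, 77.29 and 72.90 in leaf. Its stem values were above all 3 leaf values, while root spanned both. PB.37339.1, the next in level, had 85.28, 78.73 and 89.79 RPKM in root, 83.25, 89.34 and 74.02 in stem and 71.35, 65.75 and 82.54 in leaf, and all 3 organs overlapped. At the low end PB.55991.1 had 18.41, 16.47 and 16.69 RPKM in root, 17.61, 20.05 and 15.66 in stem and 19.52, 16.70 and 15.69 in leaf. Both its highest and its lowest value were stem samples. PB.50935.1 had 15.34, 17.73 and 16.89 RPKM in root, 19.19, 16.99 and 19.13 in stem and 18.41, 16.95 and 19.81 in leaf, with root replicate 1 close to the edge of the window.

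**Figure D2:**
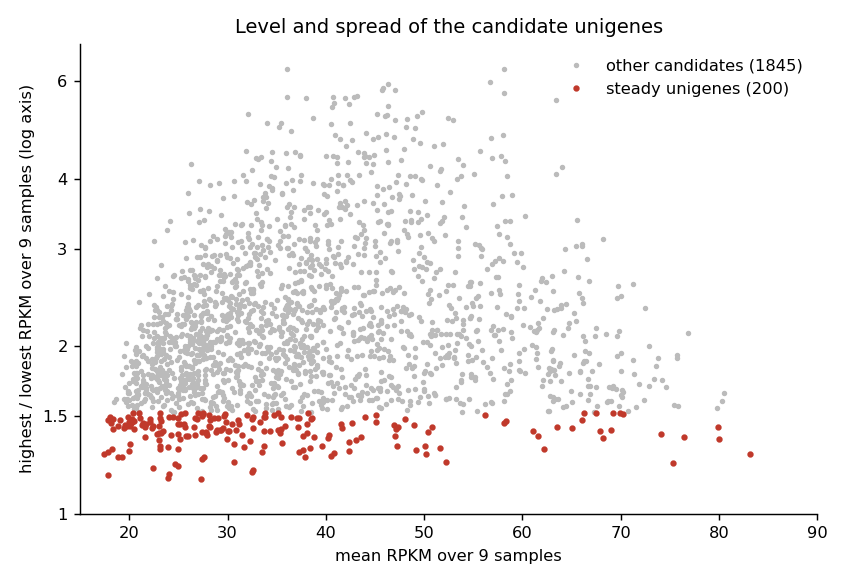
Mean RPKM over the 9 samples (x axis) against the highest divided by the lowest RPKM (y axis, log scale) for the 2045 candidate unigenes, each a point, with the 200 steady ones in red. The red points reach a ratio of 1.52 and spread from 17.4 to 83.2 RPKM, and the grey points thin out at the left, where the lower edge of the level window limits the ratio.

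The remaining spread was not evenly divided over the organs. The ratio of highest to lowest value among the 3 replicates had a median of 1.18 in root, 1.21 in stem and 1.13 in leaf over the 200 steady unigenes. In the other candidates these medians were 1.40, 1.49 and 1.19, in the same order. Leaf was the organ with the widest replicates in 30 of the 200 (15%, other candidates 7.53%). Root was the widest in 76 (38%, other candidates 38.2%) and stem in 94 (47%, other candidates 54.3%). For 33 of the 200 (16.5%, other candidates 11.2%) the highest and the lowest of the 9 values were replicates of the same organ. These were 13 in root, 17 in stem and 3 in leaf. Differences between organ means made up a median of 38.7% of the log2 variation (0.336% to 92.8%), against 55.7% in the other candidates. The highest organ mean divided by the lowest had a median of 1.17 and was under 1.1 in 45 of the 200.

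The extremes fell on particular libraries. The highest of the 9 values was in stem replicate 2 for 47 of the steady unigenes (23.5%, other candidates 21.1%). It was in stem replicate 3 for 46 (23%, other candidates 20.4%). The lowest was in leaf replicate 2 for 36 (18%, other candidates 20.4%) and in root replicate 3 for 36 (18%, other candidates 19.6%). In leaf replicate 3 it fell for 32 (16%, other candidates 14.6%). Stem replicate 2 was the lowest sample of 4 (2%, other candidates 1.52%). On the log2 scale, the deviation of stem replicate 2 from each unigene's own mean had a median of 0.14, the largest of the 9 samples, and 159 of the 200 were above their own mean there. The median deviations were -0.04, -0.08 and -0.07 in leaf replicates 1, 2 and 3. Root replicate 2 was raised, with a median of 0.08, while root replicates 1 and 3 lay at -0.02 and -0.06. The other candidates deviated in the same direction in 8 of the 9 samples and further, by 0.26 in stem replicate 2 and by -0.17, -0.21 and -0.17 in the leaf replicates, the exception being root replicate 1 at 0.03. These values are shifts common to many unigenes of a sample. Whether they come from the scaling of RPKM or from the organs was not tested. The study's quality table also lists stem replicate 2 below every other sample in a measure of RNA purity, and under the limit the study states. Whether that bears on the values of stem replicate 2 was not tested either.

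**Figure D3:**
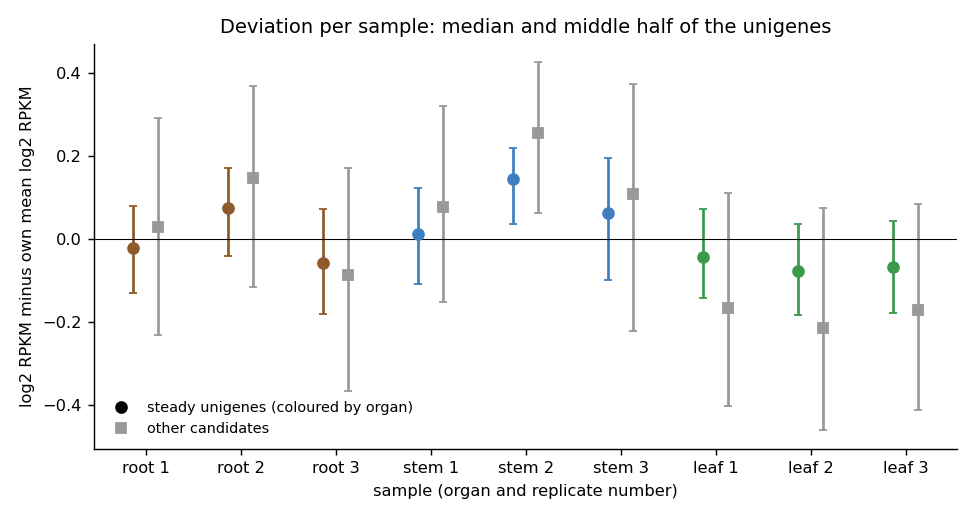
Deviation of each sample (x axis, organ and replicate number) from a unigene's own mean log2 RPKM (y axis), as the median (symbol) and the middle 50% (bars) over the 200 steady unigenes (circles, coloured by organ) and the 1845 other candidates (grey squares). The steady unigenes run from -0.08 in leaf replicate 2 to 0.14 in stem replicate 2, and the other candidates move further in all 9 samples.

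By organ means, stem was the highest organ in 104 of the steady unigenes (52%, other candidates 48.9%). Root was the highest in 57 (28.5%, other candidates 30.2%) and leaf in 39 (19.5%, other candidates 20.9%). Leaf was the lowest organ in 108 (54%, other candidates 61.9%). Root was the lowest in 63 (31.5%, other candidates 30.7%) and stem in 29 (14.5%, other candidates 7.43%). The most frequent order was stem above root above leaf, in 67 of the 200 (33.5%, other candidates 34.7%). Values without overlap between the replicates of 2 organs were counted next to the share of all 50225 tested unigenes, which is the background. Since the choice of the 200 used these same values, nothing is read from the difference to the background. All 3 stem values were above all 3 leaf values in 58 of the 200 (29.0%, background 16.7%, other candidates 39.3%). The opposite held in 5 (2.5%, background 15.4%, other candidates 8.83%). All 3 root values were above all 3 leaf values in 44 (22.0%, background 28.9%, other candidates 37.8%). Leaf was above root in this way in 20 (10%, background 17.3%, other candidates 18.0%). For stem above root the count was 27 (13.5%, background 6.28%, other candidates 11.5%). For root above stem it was 9 (4.5%, background 9.11%, other candidates 4.34%). In 29 of the 200 (14.5%) all 3 leaf values were under the 6 values of root and stem (background 13.2%, other candidates 28.2%), and in 1 they were above (background 12.1%, other candidates 7.59%).

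The unigenes at the ends of the root to leaf and stem to leaf ratios of means were as follows. PB.38720.6 had 42.87, 44.77 and 44.82 RPKM in root, 36.17, 40.49 and 43.62 in stem and 30.22, 32.81 and 30.81 in leaf. Its root mean was 1.41 times its leaf mean, the largest such ratio of the 200, and root and leaf did not overlap. In PB.50866.1 the direction was opposite, with 15.42, 15.99 and 15.68 RPKM in root, 16.63, 22.12 and 22.71 in stem and 19.88, 22.04 and 20.56 in leaf. Root was the low organ of PB.50866.1, at 0.754 times the leaf mean and within 0.285 RPKM (SD, n = 3) among its replicates. PB.22796.2 had 23.90, 28.23 and 20.16 RPKM in root, 28.11, 29.24 and 28.51 in stem and 22.05, 20.15 and 19.55 in leaf. Its stem mean was 1.39 times its leaf mean, the largest of the 200, without overlap. PB.50934.1 had 19.42, 22.87 and 16.80 RPKM in root, 17.48, 17.86 and 19.85 in stem and 24.68, 24.37 and 21.07 in leaf, with all 3 leaf values above all 3 stem values and a stem mean at 0.787 of the leaf mean.

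Differences among the organs were fitted with limma on log2(RPKM + 1) over all 50225 unigenes above 0.1 RPKM in at least 3 samples, with Benjamini-Hochberg adjustment. The count of steady unigenes called is again a description, because the ratio that chose them bounds their differences. At an adjusted p under 0.05, the moderated F test of the 3 organs called 0 of the 200, where 19.5% of all tested unigenes were called. In the single comparisons limma called 0 for root against leaf (background 23.4%), 0 for stem against leaf (background 14.3%) and 0 for root against stem (background 1.68%). At an unadjusted p under 0.05 these counts were 1 in the F test (32% of all tested unigenes), 5 for root against leaf (36%), 7 for stem against leaf (25.5%) and 2 for root against stem (13.3%). The lowest adjusted p of a steady unigene was 0.140 in the F test and 0.0641 between root and leaf. Without stem replicate 3 the limma fit called 2 between root and leaf, both higher in root, where 29.6% of the unigenes tested in that fit were called. A missed threshold does not show equal levels, since the median standard error of the root minus leaf difference was 0.18 on the log2 scale over the 200, and the 200 differences themselves ran from -0.39 to 0.48 with a median of 0.05. The stem minus leaf differences ran from -0.33 to 0.46 (median 0.09) and the root minus stem differences from -0.45 to 0.37 (median -0.07). Over all tested unigenes the medians were 0.18, 0.05 and 0.09 for root minus leaf, stem minus leaf and root minus stem. On this log2(RPKM + 1) scale the median steady unigene was lower in root than in stem, as was the median other candidate, by more (-0.11), while the median of all tested unigenes was higher in root.

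Samples that took no part in a ranking give a check that the choice did not fix. The samples left out together share a replicate number, however. Root and stem samples of the same number were correlated over all tested unigenes (0.605, 0.573 and 0.664). Deviations that they share do not widen their ratio, in the list and in the candidates alike. The ranking was repeated on the samples of 2 replicate numbers, with the level window applied to those 6 samples, and the first 200 were then measured in the 3 samples left out, 1 of each organ. With the replicates numbered 1 left out, the ratio of highest to lowest value in the left-out samples had a median of 1.26, against 1.55 over the 2290 candidates of that ranking. With number 2 left out the medians were 1.33 and 1.62 (2255 candidates), and with number 3 left out 1.39 and 1.70 (2641 candidates). In the 6 ranked samples the lists had median ratios of 1.34, 1.30 and 1.27. A ratio over 3 samples has fewer values to spread than one over 6 or 9, so only the candidates in the same samples are a like measure. With numbers 1, 2 and 3 left out, 162, 149 and 129 of the 200 had a ratio under 1.5 in the left-out samples. These are 81.0%, 74.5% and 64.5%, against 46.1%, 39.8% and 33.1% of the candidates. A ratio of 2 or more was reached by 8, 5 and 26 of the 200 (4%, 2.5% and 13%), against 25%, 26.3% and 35.1% of the candidates. Both shares were highest with number 3 left out, and the cause was not tested. Of the 200 in each of these rankings, 127, 121 and 97 were also among the 200 chosen on all 9 samples.

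**Figure D4:**
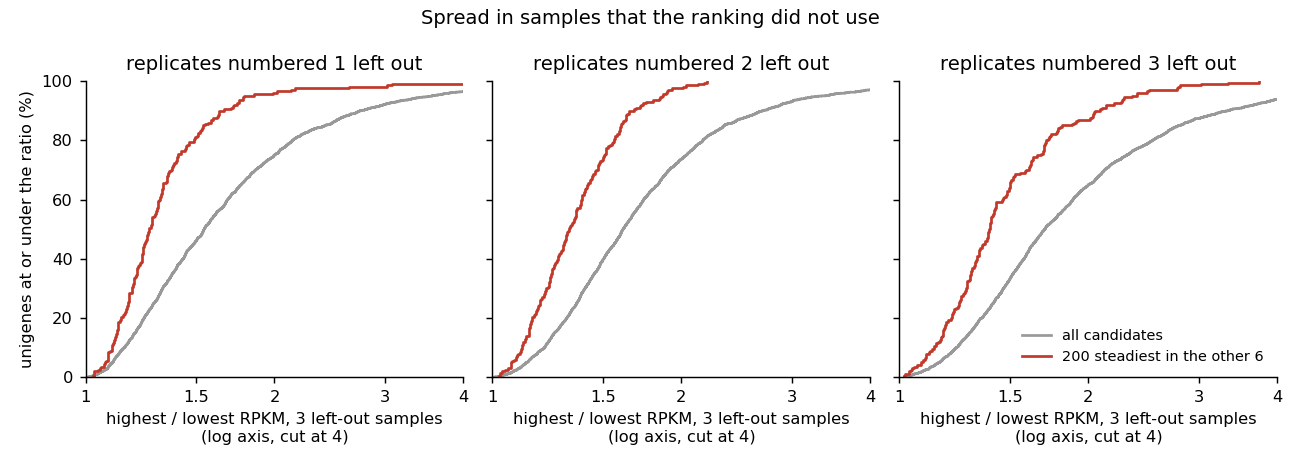
Share of unigenes (y axis, percent) at or under a given ratio of highest to lowest RPKM in the 3 left-out samples (x axis, log scale, ended at 4), for the 200 unigenes ranked steadiest on the other 6 samples (red) and for all candidates of that ranking (grey), with the replicates numbered 1, 2 or 3 left out. The red line lies left of the grey one in each panel, with medians of 1.26 against 1.55, 1.33 against 1.62 and 1.39 against 1.70.

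A whole organ was left out in the same way. For the 200 unigenes ranked on stem and leaf alone, the root mean lay within 1.5-fold of the mean of the 6 ranked samples in 190 (95.0%), against 78.3% of the 2453 candidates of that ranking. Ranked on root and leaf, 186 (93.0%) were within 1.5-fold in stem, against 87.4% of 2506 candidates. Ranked on root and stem, only 130 (65.0%) were within 1.5-fold in leaf, against 52.0% of 2924 candidates. The leaf mean of these 200 was lower by a median of 0.43 on the log2 scale, close to the 0.42 by which all candidates of that ranking were lower. A change of 2-fold or more in leaf was seen in 9% of them, 16 lower and 2 higher, against 25.5% of the candidates. All 3 leaf values lay under the 6 ranked values in 134 of these 200 (67%), against 39.1% of the candidates, and above them in 10. A narrow range in the ranked samples makes such a gap easier to reach. Of these 200, 70 were among the 200 chosen on all 9 samples. The share within 1.5-fold was thus lowest for leaf, although no test of the difference between the 3 rankings was run and their candidates differ.

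The list depended strongly on how the samples were scaled. Each sample was divided by its median ratio to the mean profile of the 40184 unigenes above 0 in all samples, and the whole rule was applied again, after which 44 of the 200 were still among the first 200. The divisors on the log2 scale were 0.30, 0.32 and -0.03 for root replicates 1, 2 and 3, 0.24, 0.16 and -0.42 for stem and -0.09, -0.24 and -0.08 for leaf. After this scaling the median ratio of the 200 rose from 1.43 to 1.83, 68 of them reached a ratio of 2 or more, and stem replicate 3 became the highest sample of 166. In the level range of the candidates the same median ratios were 0.10 for stem replicate 3 and 0.23 for stem replicate 2, so that stem replicate 3 was low over all unigenes and raised among the candidates. With the median ratios of the candidates as divisors, a setting added after the data were seen, 95 of the 200 were kept, and with equal summed RPKM 107 were. Quantile normalization kept 138. The unigenes kept under all 4 of these scalings numbered 4: PB.37787.5, PB.19489.5, PB.32564.2 and PB.37441.2, named here after their values were seen.

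PB.37787.5 was the steadiest of these 4, eleventh in rank, with 53.23, 57.00 and 55.54 RPKM in root, 53.23, 55.99 and 50.79 in stem and 49.61, 48.64 and 45.96 in leaf. Its 3 leaf values were its 3 lowest, and its ratio was 1.24 as deposited and 1.57 after median-ratio scaling. PB.19489.5 had 35.36, 33.50 and 25.98 RPKM in root, 30.77, 35.01 and 26.91 in stem and 27.10, 28.57 and 26.54 in leaf. Replicate 3 was the low sample of each organ in PB.19489.5, and its ratio hardly moved, from 1.36 to 1.38. PB.32564.2 had 42.90, 45.32 and 38.71 RPKM in root, 52.98, 50.42 and 39.64 in stem and 42.24, 38.47 and 41.74 in leaf, with ratios of 1.38 and 1.52. PB.37441.2 had 26.52, 24.38 and 19.00 RPKM in root, 25.17, 25.61 and 22.24 in stem and 19.69, 21.02 and 23.33 in leaf, with ratios of 1.40 and 1.53. Among the 8 first in rank as deposited, 1 was in the first 200 after median-ratio scaling, PB.20481.2, and no unigene was among the first 20 of both rankings.

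Other settings moved the list as well. Leaving out 1 sample kept from 145 of the 200, without stem replicate 3, to 179, without leaf replicate 1, and 130 were kept in all 9 such rankings. Ranking by the coefficient of variation kept 168. Ranking by the ratio of organ means, which ignores the spread between replicates, kept 89. Dropping the level limits kept 93, and a lower limit of 5 RPKM with no upper limit kept 103.

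**Figure D5:**
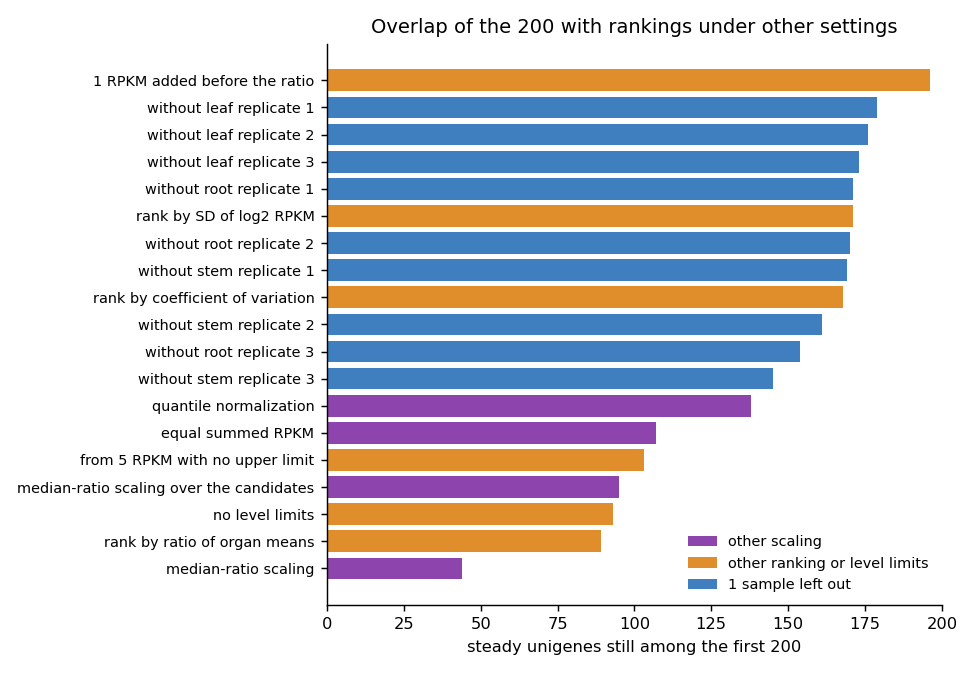
Number of the 200 steady unigenes (x axis, from 0) that were again among the first 200 under each other setting (y axis), coloured by kind of setting. Median-ratio scaling kept the fewest, 44, the rankings without 1 sample kept 145 to 179, and adding 1 RPKM before the ratio kept 196.

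Replicate numbers left a trace in the steady unigenes between root and stem. After removal of each organ's mean on the log2(RPKM + 1) scale, root and stem samples of the same number had correlations over the 200 unigenes of 0.26, 0.31 and 0.34 for numbers 1, 2 and 3, and pairs of different numbers ran from -0.43 to 0.14. For root with leaf the same-number values ran from 0.01 to 0.14 and those of different numbers from -0.14 to 0.10. For stem with leaf the same-number values ran from -0.15 to 0.18 and those of different numbers from -0.28 to 0.20. With leaf, same and different numbers thus overlapped. These are correlations across unigenes that share 2 libraries, unigenes are not independent replicates, and the 3 deviations of an organ sum to 0, which pushes pairs of different numbers down. With the replicate number as a block, limma called 0 of the 200 in the F test (22.1% of all tested unigenes), 0 for root against leaf (26.7%), 0 for stem against leaf (15.9%) and 0 for root against stem (1.88%).

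The IDs hold a property that the ranking did not use. Each ID has a number that no other unigene shares and, after the second point, a further number, whose meaning is not given in the sources used here. That last number was 1 in 64 of the 200 steady unigenes (32%), in 33.3% of the other candidates and in 70.6% of all unigenes. Its median was 2 in the steady unigenes and in the other candidates, and 1 over all unigenes.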

How the data were processed

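Expression was measured by paired-end RNA sequencing in 9 samples, 3 each of root, stem and leaf. The deposited values are RPKM, for which the authors discarded low-quality reads, mapped the rest with HISAT2 2.05 to their PacBio unigenes and estimated expression with RSEM. Their methods call the unit FPKM, and their data records RPKM. The labels also name DESeq, which was not used here. RSEM divides reads shared by similar unigenes, so near-identical copies are uncertain. Each column was assigned by the number in its sample's description, and 0 columns were left unused. No 2 columns were identical.

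The members and the choices of test and alternative were made with earlier results of these data known. limma 3.58.1 (R 4.3.3) was fitted to log2(RPKM + 1) with organ as the factor, all 9 samples, an intensity trend and Benjamini-Hochberg adjustment over 50225 unigenes above 0.1 RPKM in at least 3 samples. No fold limit was set, since the ranking already bounds it. In simulated data of 50225 unigenes, limma called 68.5% of 200 unigenes raised 2 on the log2 scale in root against leaf. It also called 10 of the unchanged ones. The simulated noise was independent between samples, while the real samples of root and stem with the same number were correlated. The raise was larger than any root minus leaf difference of the steady unigenes (at most 0.48). The simulation therefore does not bear on how many of them were called. Other steps used Python 3.11.15, numpy 2.4.6 and pandas 2.3.3. Neither unigene lengths nor unigene sequences were analysed here.

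Unigenes were named by rule: the first 8, the last 2 and the next 2 in rank, the 2 highest and the 2 lowest means, the extreme ratios of root to leaf and stem to leaf means, and any in the first 20 before and after median-ratio scaling. Others are named where stated. Whether replicate numbers pair samples was checked from deviations from organ means over all tested unigenes. Same-number correlations were 0.605, 0.573 and 0.664 for root and stem, all above 0.1, so the numbers were taken to pair root and stem, from the values alone. For leaf they ran from 0.03 to 0.35 with root and from -0.03 to 0.33 with stem. The main fit had organ as its only factor, so its p-values and standard errors do not account for the pairing of root and stem. The fit with the replicate number as a block was run as an alternative. The alternatives were other scalings, rankings, level limits, pseudocounts, filters, sample sets and blocks.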

Additional observations from a re-analysis of the deposited data

How the results depend on the processing

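Of the 200 steady unigenes, 44 were kept with median-ratio scaling, 107 with equal summed RPKM, 95 with median-ratio scaling over the candidates, 89 when ranked by organ means, 93 without level limits and 103 from 5 RPKM upward, while the rankings without 1 sample kept 145 to 179. Ranking by the SD of log2 RPKM, added after the data were seen, kept 171. In limma the count called between root and leaf rose from 0 to 12 without a filter on low values (10 higher in root; 18.4% of all unigenes tested in that fit), 2 with a limit of 5 RPKM (39.7%), 1 with median-ratio scaling (lower in root; 22.7%), 1 with quantile normalization (24.8%), 3 without an intensity trend (23.6%) and 2 with only the 6 samples compared (29.2%), and it ran from 0 to 2 without 1 replicate. Between stem and leaf it rose to 13 without the filter (11.5%) and 1 with a limit of 5 RPKM (29.7%), between root and stem to 1 without the filter (1.27%), and in the F test to 10 without the filter (15.3%). The causes were not tested. The unfiltered fit holds 4297 unigenes with 1 constant value, whose variance limma had to offset. With the replicate block, in all 9 samples or in the 6 compared, 0 of the 200 were called in every comparison. Across all 9 samples the block thus changed no call among the 200. Over all tested unigenes the share called in the F test rose from 19.5% to 22.1%. With root and leaf alone the block ended the 2 calls, and 24.3% of all tested unigenes were then called. The median ratio in left-out samples numbered 3 moved from 1.39 to 1.62 with median-ratio scaling, and list lengths of 100 and 400 or ranking by the coefficient of variation moved none of the 3 medians by as much as their SD of 0.0647.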

Other observations

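A unigene outside the 200, PB.60337.1, was seen among the 200 ranked without the replicates numbered 1. It had 57.30 and 54.57 RPKM in root replicates 2 and 3, 55.88 and 63.52 in stem replicates 2 and 3 and 53.02 and 71.04 in leaf replicates 2 and 3. In the replicates numbered 1 it was listed at 0 in root and had 0.20 RPKM in stem and 0.52 in leaf. It was therefore steady over 6 samples and close to absent from the values of the other 3, 1 of each organ.

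A search was then made, after these values were seen, for unigenes at or under 1 RPKM in 1 sample of each organ and at or above 15 RPKM in the other 6. With the 3 samples numbered 1 as the low ones there were 12, and with those numbered 2 or 3 there were 0. Over the 24 sets of 3 samples with unlike numbers there were 0 in all. Another of the 12, PB.22802.2, was listed at 0 in all 3 samples numbered 1 and had 22.63 and 20.29 RPKM in root, 37.73 and 37.20 in stem and 34.21 and 48.70 in leaf. PB.26569.4 had 0, 0.07 and 0.05 RPKM in root, stem and leaf of number 1, and 25.61 to 45.75 RPKM in the other 6 samples. The opposite pattern, at or above 15 RPKM in 1 sample of each organ and at or under 1 RPKM in the others, was found for 5 unigenes with number 1, 0 with number 2 and 1 with number 3, and for 0 over the 24 sets with unlike numbers. The search itself required the chosen samples of all 3 organs to stand together, leaf included, so that they do so is no result. It gives only the counts per set of numbers, and PB.60337.1, which prompted it, is among the 12. For leaf, the correlation of deviations had not passed its limit with every number. What the numbers stand for is not given in the sources used here.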
